A study of Mus musculus with 8 samples.

Results

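Among the 5 libraries labelled Emb knockdown, kd 1 and kd 2 were set against kd 3, kd 4 and kd 5, that is 2 libraries against 3 out of the 8 in the series. The 2 libraries were chosen by their own high leukocyte and low neural crest transcript levels, so every difference below between kd 1-2 and kd 3-5 comes from the contrast that chose them. It is given as a description, with no test, and it is not a test of Emb. All 8 libraries were labelled as enteric neural crest cells from the gastrointestinal tract of mouse embryos at embryonic day 14.5, sorted by flow cytometry with antibodies to CD271 and CD57 into tubes of about 200 cells and amplified by Smart-seq2, a full-length cDNA method. The 5 carried the genotype Emb knockdown and the 3 others were wild type (WT). The labels did not say how Emb was lowered, in which cells, or which tubes came from separate embryos, so the spread between libraries of a group may be technical.

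The total of expected counts lay between 20116566 and 26959246 per library, and 3 counts corresponded to between 0.0966 and 0.155 counts per 1000000 counts (CPM, scaled for composition by TMM). Levels at or under 3 counts were set to that floor for ratios. kd 1 and kd 2 held 15079 and 15276 genes with a count, and the 6 others 16213 to 17049. The gene targeted in the study did not follow the label: Emb, which encodes the membrane glycoprotein embigin, stood at 353 and 349 CPM in kd 1 and kd 2, at 37.2, 21.4 and 21.7 CPM in kd 3, 4 and 5, and at 16.9, 17.7 and 15.9 CPM in WT 1, 2 and 3. None of the 5 libraries labelled knockdown lay below the highest WT value. Sox10 and Ret, which help define the labelled cell type, stood far lower in kd 1 and kd 2 than in the 6 other libraries, while Ednrb, another such gene, lay nearer (values below). By Sox10 and Ret these 2 libraries went against their cell type label. They were chosen for low neural crest transcripts, so this describes the choice and is not separate evidence.

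Enteric neural crest cells are migratory progenitors that colonise the gut and form the neurons and glia of the enteric nervous system. They are recognised by the transcription factor Sox10 and by the receptors Ret and Ednrb, through which the ligands GDNF and endothelin-3 act. Macrophages enter the embryonic gut from the yolk sac and the fetal liver before the enteric network is complete. They depend on the growth factor receptor Csf1r and the transcription factor PU.1, clear dying cells, and carry complement, Fc receptors and lysosomal enzymes.

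kd 1 and kd 2 carried high levels of macrophage genes and little or nothing of most enteric neuron genes. The 4 marker genes given for the immune cells were high in both. Csf1r, the receptor for the macrophage growth factors CSF1 and IL-34, stood at 3023 and 2316 CPM, at 179, 212 and 226 CPM in kd 3, 4 and 5, and at 48.2, 68.1 and 40.8 CPM in WT. Adgre1, which encodes the macrophage surface protein F4/80 (chromosome 17, 57358581 to 57483529, GRCm38.p6), stood at 821 and 676 CPM, at 56.1, 51.99 and 41.5 CPM in kd 3, 4 and 5, and at 19.7, 31.1 and 15.6 CPM in WT. Aif1, which encodes the actin-binding protein IBA1, stood at 633 and 551 CPM, at 59.05, 101 and 80.5 CPM and at 8.65, 11.1 and 8.51 CPM in the same order. Apoe, a lipid carrier that macrophages and glia both make (chromosome 7, 19696244 to 19701310), stood at 14406 and 12335 CPM, at 786, 852 and 382 CPM and at 231, 430.3 and 237 CPM. For each of the 4, kd 1 and kd 2 lay above the 6 other libraries without overlap, and kd 3, 4 and 5 lay above WT for Csf1r, Adgre1 and Aif1. The choice of the libraries favours such a separation, and the share of all genes without overlap was not counted.

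To describe many genes on one scale, a gene was counted as higher or lower when both kd 1 and kd 2 lay at least 4-fold beyond the nearest of kd 3, 4 and 5, among 14170 genes with a mean of at least 1 CPM over the 5 libraries. By this rule 6.54% of those genes (927) were higher and 16.1% (2276) lower. These shares are the background for the counts of list members below, and nothing is read from them, since the same contrast chose the libraries. Where a list count is near or under its share, nothing is read from that count either. The list counts are given over all measured members, and members with a mean under 1 CPM could not be called. Within that filter lay 4 of 12 B cell, 7 of 12 T cell and 8 of 15 innate lymphoid and NK cell genes. For platelets it was 6 of 10 and for granulocytes 12 of 16. The median log2 difference was 0.02 over all 18561 genes. In what follows, the CPM of kd 1 and kd 2 are set against those of kd 3, 4 and 5, in that order. Of 20 macrophage core genes, which include the given markers Csf1r, Adgre1, Aif1 and Apoe, 19 were higher and none was lower. The exception was Mertk, a receptor for apoptotic cells, at 85.03 and 71.1 CPM against 13.1, 25.01 and 20.97 CPM. The median log2 difference of the 20 genes was 3.48. All 15 pan leukocyte genes were higher, with a median log2 difference of 4.15, led by Fermt3, an integrin activator of blood cells, at 633 and 628 CPM against 32.04, 26.98 and 10.2 CPM, and by Was, the actin regulator lost in Wiskott-Aldrich syndrome, at 270.1 and 269 CPM against 14.2, 13.4 and 7.37 CPM. Ptprc, which encodes the leukocyte antigen CD45, stood at 595 and 470.3 CPM against 64.9, 68.2 and 75.5 CPM.

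The macrophage core genes together took 2.99% (95% Wilson interval 2.98 to 2.99%) of all counts in kd 1 and 2.67% (95% Wilson interval 2.66 to 2.68%) in kd 2. In kd 3, 4 and 5 they took 0.289% (95% Wilson interval 0.287 to 0.292%), 0.335% (95% Wilson interval 0.333 to 0.338%) and 0.207% (95% Wilson interval 0.205 to 0.209%). These intervals cover the sampling of reads only, and not the spread between tubes. The reads carried no molecular identifiers, so copies of the same molecule were not told apart. The intervals are therefore too narrow for a share of molecules. In bulk libraries, more cells of a type and more RNA per cell cannot be told apart. On the length-corrected scale of the deposited FPKM, Apoe ranked 3rd among all genes by its lower level in the 2 libraries, at 10277 and 9308 FPKM, behind Tmsb4x and Ftl1, and it lay at 817, 861 and 410 FPKM in kd 3, 4 and 5. Tyrobp, the signalling adaptor of TREM2 and related receptors, ranked 13th at 5248 and 3947 FPKM, Lyz2, a lysozyme of myeloid cells, 15th at 3809 and 4585 FPKM, the chemokine gene Ccl4 19th at 4419 and 3514 FPKM, and Fcer1g, the signalling chain of Fc receptors, 20th at 4148 and 3511 FPKM.

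**Figure D1:**
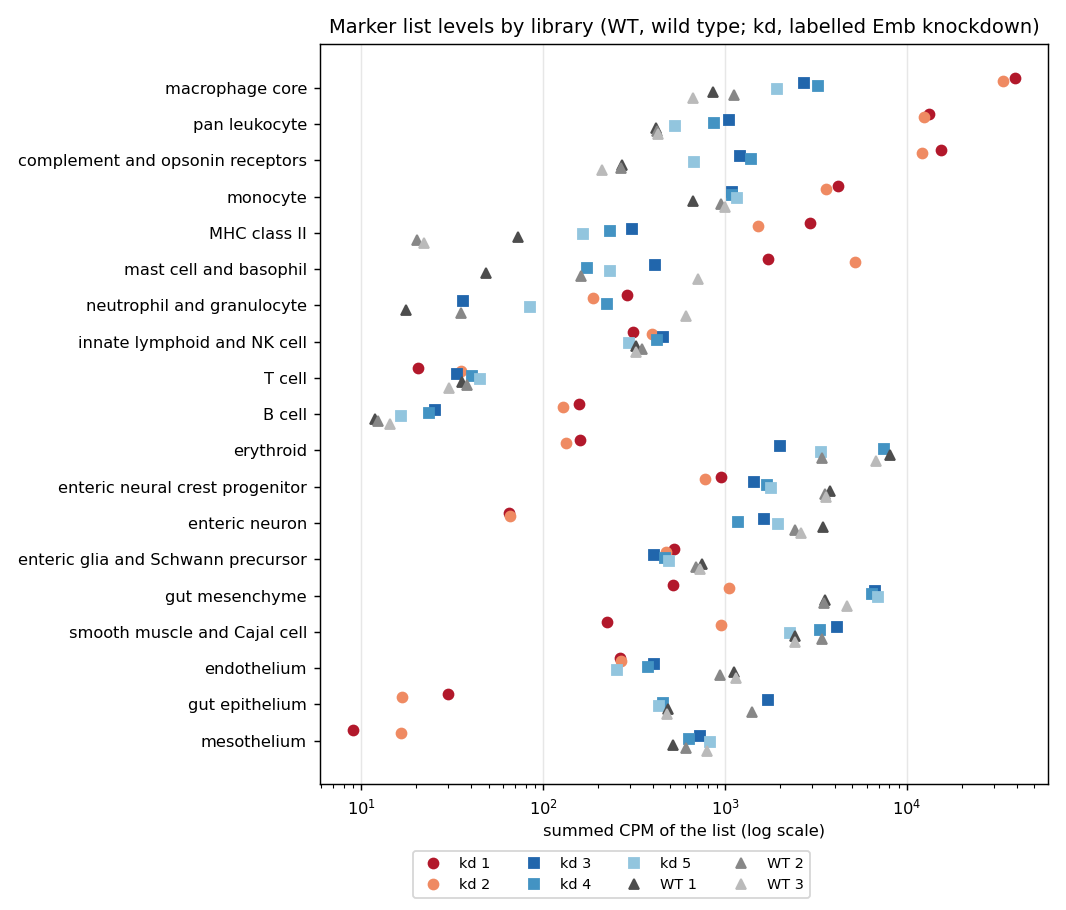
Summed CPM of each marker list (horizontal axis, log scale) in the 8 libraries, 1 point per library, with kd 1 and kd 2 as circles, kd 3 to 5 as squares and WT as triangles. The 2 circles lie to the right of the squares for the macrophage core (39395 and 33611 CPM against 2705, 3260.1 and 1924 CPM) and to the left for enteric neurons (65.1 and 65.96 CPM against 1642, 1182 and 1945 CPM).

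Of 17 macrophage transcription factors, 10 were higher, 2 were lower and 5 were past neither limit. The count of 2 lower is no more than the 16.1% of all tested genes, and nothing is read from it. Spi1, which encodes PU.1, the factor that myeloid cells need to form, stood at 707 and 649.8 CPM in kd 1 and kd 2 and at 46.5, 24.8 and 17.2 CPM in kd 3, 4 and 5, 13.98-fold between the nearest libraries. Irf5, an interferon regulatory factor of inflammatory macrophages, stood at 382 and 353 CPM against 21.6, 15.1 and 6.45 CPM, and Irf8, a factor of the monocyte and macrophage line, at 609 and 489 CPM against 48.1, 45.9 and 33.6 CPM. Cebpa, a factor of myeloid progenitors, stood at 114 and 80.8 CPM against 14.98, 9.96 and 5.85 CPM. Spic, which marks iron-recycling macrophages, was low but detected at 13.1 and 11.96 CPM against 1.07, 1.68 and 0 CPM. The 2 lower members were Id3, an inhibitor of helix-loop-helix factors that Kupffer cells need and many progenitors share, at 39.4 and 51.2 CPM against 548, 752 and 463 CPM, and Gata6, the factor of peritoneal macrophages that gut mesoderm and epithelium also use, at 0.618 and 0.942 CPM against 34.6, 10.4 and 23.05 CPM. Maf, a factor of resident macrophages, did not overlap but lay close, at 184 and 146 CPM against 41.3, 115 and 112 CPM, a ratio of 1.26-fold between the nearest libraries. The 4 others past neither limit were Zeb2, Mitf, Bhlhe41 and Sall1. Zeb2 stood at 201 and 193 CPM against 69.2, 163 and 164 CPM and Mitf, a factor of lysosomal and osteoclast genes, at 32.96 and 37.2 CPM against 7.81, 10.1 and 8.39 CPM. Bhlhe41 stood at 7.67 and 5.79 CPM against 1.11, 3.51 and 3.96 CPM and Sall1 at 0.824 and 1.08 CPM against 3.11, 5.61 and 4.52 CPM.

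PU.1 binds a purine-rich core, and the letters GAGGAAG were looked for on both strands in RefSeq promoter windows (GRCm38.p6, from 250 bases before to 50 bases after each gene start). They occurred in 15.4% of 27025 genes with a window, in 4 of 14 macrophage core genes with a window and in 5 of 13 enteric progenitor genes with one. The SOX-type letters ACAAAG occurred in 21.0% of all genes, in 6 of 14 macrophage core genes, in 3 of 13 progenitor genes and in 1 of 23 enteric neuron genes. The match is a description of letters and not of a bound site. The stretches below are shown because they carry the core within macrophage core genes that stood higher in kd 1 and kd 2; they are written along the gene's strand, with the core or its reverse complement in capitals, and lie at chr3:96294003-96294041 (minus strand), chr7:128062540-128062578 (plus strand) and chr17:48346344-48346382 (plus strand).
Fcgr1: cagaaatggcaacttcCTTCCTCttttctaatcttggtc
Itgam: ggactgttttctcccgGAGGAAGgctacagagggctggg
Trem2: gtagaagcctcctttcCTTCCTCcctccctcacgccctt
The core began 56, 84 and 41 bases before the gene start. Fcgr1, a high-affinity IgG receptor used to identify macrophages, stood at 463 and 354 CPM against 36.4, 42.1 and 15.6 CPM. Itgam, the integrin chain CD11b, stood at 223 and 168 CPM against 13.99, 13.8 and 23.9 CPM. Trem2, a lipid-sensing receptor, stood at 268 and 228 CPM against 22.8, 44.9 and 24.7 CPM. The 3 genes did not overlap between kd 1-2 and kd 3-5. The choice of these libraries favours this, the share of all genes without overlap was not counted, and nothing is read from it.

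Genes of tissue-resident fetal macrophages were present in kd 1 and kd 2, though fewer of them passed the 4-fold rule than core genes. Of 18 measured members, 7 were higher, none was lower and 11 passed neither limit, and the median log2 difference was 2.92. Mrc1, the mannose receptor CD206, stood at 799 and 679 CPM against 126, 159 and 92.8 CPM. F13a1, the coagulation factor XIII chain that fetal macrophages and monocytes make, stood at 1012 and 1079.7 CPM against 47.5, 80.3 and 39.4 CPM. Lyve1, a hyaluronan receptor of perivascular macrophages and of lymphatic endothelium, stood at 137 and 138 CPM against 16.1, 15.1 and 4.33 CPM; the lymphatic factor Prox1 stood at 5.82 and 4.61 CPM against 5.07, 9.44 and 2.44 CPM. Mrc1, F13a1 and Lyve1 separated kd 1-2 from kd 3-5 by 4.28-fold, 12.6-fold and 8.52-fold.

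Several members of the resident list were low or close between the libraries. Timd4, a receptor for phosphatidylserine on long-lived resident macrophages, stood at 44.8 and 20.8 CPM against 3.48, 2.71 and 5.48 CPM, and Folr2, a folate receptor of resident macrophages, at 58.4 and 31.7 CPM against 4.25, 8.84 and 3.73 CPM. Cd163, a haemoglobin scavenger receptor, reached no more than 5.304 and 2.26 CPM in kd 1 and kd 2 and 0, 0.234 and 0.737 CPM in kd 3, 4 and 5. Dab2, an endocytic adaptor, and Stab1, a scavenger receptor, were both past the rule, at 1358 and 1094 CPM against 138, 138 and 115 CPM and 810.4 and 698 CPM against 85.4, 155 and 91.5 CPM. Pf4, a chemokine of platelets and of fetal macrophages, was 783 and 558 CPM against 141, 296 and 119 CPM, and the platelet receptor genes Gp9 and Gp1ba were at 1.34 and 1.22 CPM and 0.772 and 6.73 CPM in the 2 libraries. Igf1, an insulin-like growth factor that macrophages and mesenchyme both make, was the member with a negative log2 difference, at 46.5 and 48.02 CPM against 142, 174 and 167 CPM.

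Genes of the microglial signature, many of which other embryonic macrophages share, divided in the same way. Of 13, 8 were higher and 1 was lower. P2ry12, a purine receptor, stood at 128 and 98.8 CPM against 10.2, 7.76 and 3.73 CPM, Fcrls, an Fc receptor-like gene, at 793 and 640.1 CPM against 92.8, 69.8 and 45.9 CPM, Gpr34, a lysophosphatidylserine receptor, at 105 and 75.1 CPM against 12.9, 12.1 and 4.84 CPM, and P2ry13 at 85.3 and 81.9 CPM against 4.85, 7.1998 and 4.93 CPM. Sall1, the factor that sets microglial identity in the brain, was at the low levels given above. Tmem119 overlapped, at 71.02 and 55.2 CPM against 62.4, 30.4 and 22.6 CPM, and Sparc, a matrix protein that microglia and mesenchyme both make, was the lower one at 15.04 and 53.3 CPM against 1216, 1274 and 1229 CPM. Of 9 measured genes of adult muscularis macrophages, 3 were higher, among them Hpgd, a prostaglandin-degrading enzyme, at 186 and 196 CPM against 26.4, 19.4 and 15.9 CPM, and Mrc1. Bmp2, through which muscularis macrophages act on enteric neurons, stood at 133 and 165 CPM against 43.4, 47.7 and 19.7 CPM. Chil3 had no count in kd 1 or kd 2.

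Of 15 monocyte genes, 7 were higher and 3 lower, against 6.54% and 16.1% of all tested genes. The lower count is not far from that share, and nothing is read from it. Ccr2, the chemokine receptor of circulating monocytes and their recent progeny, stood at 433 and 412 CPM in kd 1 and kd 2, at 20.02, 19.1 and 15.5 CPM in kd 3, 4 and 5 and at 7.65, 8.28 and 3.59 CPM in WT, 20.6-fold between the nearest knockdown-labelled libraries. Ly6c2, which encodes the Ly6C antigen of classical monocytes, stood at 32.6 and 21.8 CPM against 0.703, 1.17 and 2.17 CPM. Plac8 stood at 659.7 and 336 CPM against 109.8, 88.4 and 96.5 CPM. The 3 lower members were Vcan, Fn1 and Ly6c1, genes that mesenchyme or endothelium also express, at 6.39 and 12.2 CPM against 93.6, 165 and 151 CPM, 28.7 and 34.8 CPM against 232, 259 and 269 CPM and 0.36 and 0.188 CPM against 4.85, 1.54 and 4.79 CPM.

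**Figure D2:**
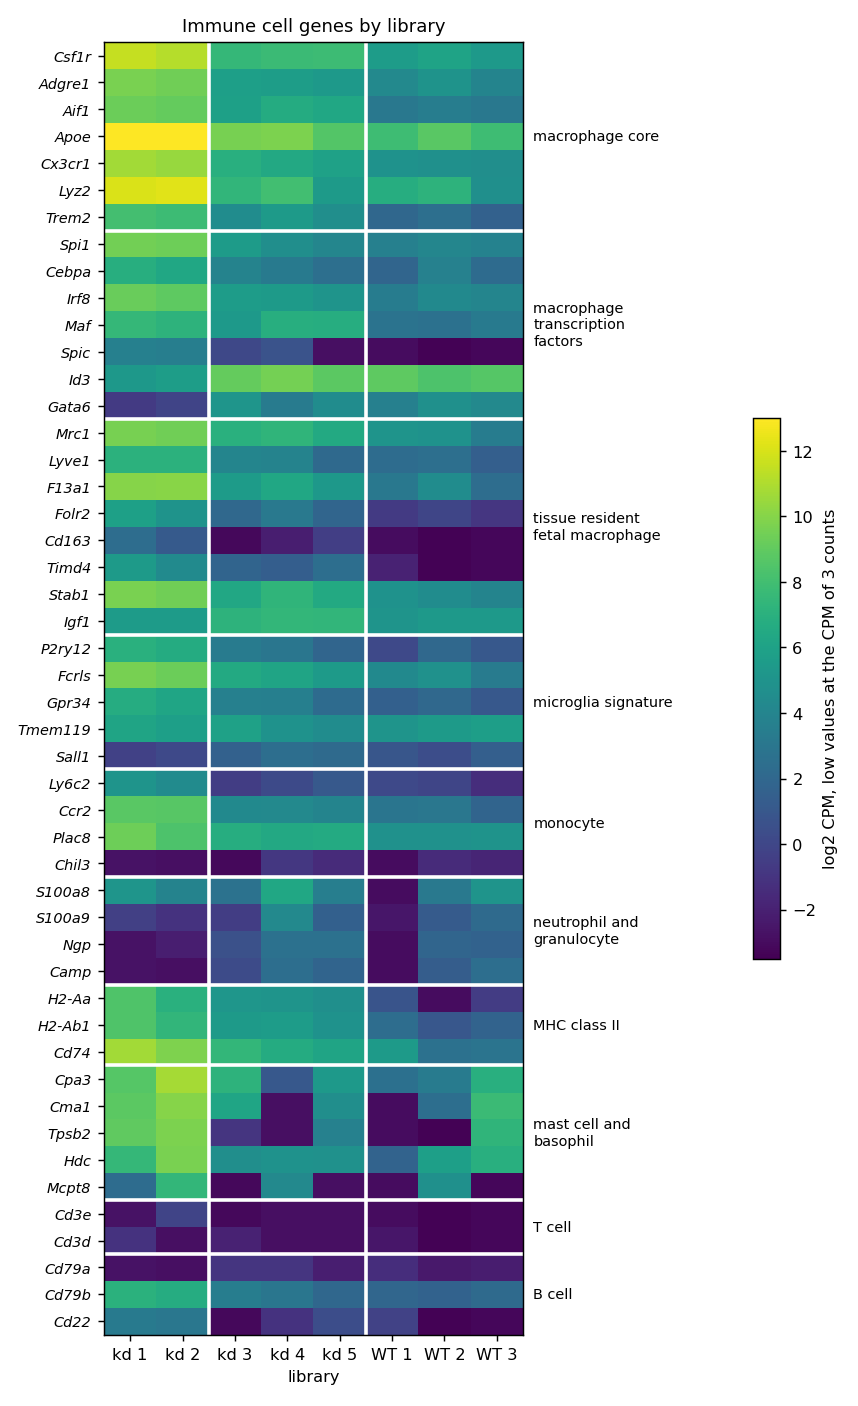
Log2 CPM (colour) of genes from 10 immune lists (rows) in the 8 libraries (columns), with values at or under 3 counts set to that level. Macrophage core genes such as Csf1r (3023 and 2316 CPM) are bright in kd 1 and kd 2, while Cd3e, Cd3d and Cd79a stay below 1 CPM in all 8 libraries and Cd79b stands at 131 and 105 CPM in kd 1 and kd 2.

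Genes for the functions of phagocytes were high in both libraries. Of 15 measured complement and opsonin receptor genes, 14 were higher and the remaining one, C4b, was below 1 CPM in all 8 libraries. C1qb, a chain of the complement recognition protein C1q, stood at 4629 and 3510.5 CPM against 367, 322 and 124 CPM, Fcgr3, a low-affinity IgG receptor, at 1602 and 1326 CPM against 105, 79.1 and 23.2 CPM, Fcgr4 at 107 and 79.8 CPM against 5.03, 4.96 and 3.36 CPM, and C3ar1, the C3a receptor, at 676 and 571 CPM against 55.8, 37.9 and 32.4 CPM. Of 18 phagocytic and scavenger receptors, 6 were higher, led by Msr1, the class A scavenger receptor, at 203 and 201 CPM against 13.1, 15.1 and 9.31 CPM, and 1 was lower, Tyro3, a TAM-family receptor expressed in neural tissue, at 0 and 1.32 CPM against 32.6, 25.5 and 31.8 CPM. Axl, of the same family, stood at 188 and 215 CPM against 85.5, 123 and 113 CPM, and Marco, a scavenger receptor of other macrophage subsets, had 0 and 0.188 CPM in kd 1 and kd 2. Of 24 lysosomal genes, 14 were higher and none was lower: Ctsc, a protease that activates granule enzymes, stood at 3954 and 3400.4 CPM against 235, 194 and 155 CPM, and Ctss, which processes the MHC class II invariant chain, at 2640.4 and 1980 CPM against 195, 178 and 147 CPM. Ctsl, a cathepsin of many cell types, stood at 338 and 248 CPM against 217, 194 and 214 CPM, and Atp6v0d2, a proton pump subunit of osteoclasts, at 0.412 and 0.0471 CPM.

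In the CSF1 and CX3C axes the receptor genes stood high in kd 1 and kd 2 and the ligand genes did not. Csf1, the ligand of Csf1r, overlapped at 23.8 and 22.4 CPM against 18.8, 17.8 and 25.7 CPM, while Il34, the other ligand, had no count in kd 1 or kd 2 and 1.44, 1.54 and 1.38 CPM in kd 3, 4 and 5. Cx3cr1, the fractalkine receptor of resident macrophages, stood at 1658 and 1381 CPM against 121, 87.8 and 61.1 CPM, whereas its ligand gene Cx3cl1 stood at 2.88 and 3.296 CPM against 5.698, 1.12 and 2.26 CPM. Ccr1, a receptor for inflammatory chemokines, stood at 708 and 533 CPM against 37.96, 32.5 and 30.2 CPM. Cxcl12, a chemokine of stromal cells, was lower, at 4.53 and 11.5 CPM against 154, 110.2 and 109 CPM. Of 12 genes of the axis, 7 were higher and 1 lower.

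Of 20 chemokine and cytokine genes, 12 were higher and none was lower. Ccl2 and Ccl7, which attract monocytes, stood at 1458 and 1468 CPM against 180.3, 194 and 94.6 CPM and 1262 and 1312 CPM against 138, 175 and 78.1 CPM. Il1b, the inflammatory cytokine interleukin-1 beta, stood at 788 and 598 CPM against 65.01, 57.3 and 29.6 CPM, and Tnf at 160.4 and 133 CPM against 10.2, 15.6 and 25.9 CPM. Tgfb1 separated the libraries by 22.9-fold, at 417 and 404 CPM against 17.6, 15.9 and 10.05 CPM, and Il10 was low, at 2.94 and 2.97 CPM against 2.89, 4.21 and 0 CPM. Of 16 Toll-like receptor genes and adaptors, 11 were higher, among them Tlr2, which recognises lipoproteins, at 429 and 339 CPM against 28.3, 40.02 and 32.3 CPM, Tlr13, a sensor of bacterial RNA, at 91.001 and 70.1 CPM against 4.29, 5.24 and 4.102 CPM, and Cd180 at 145 and 122 CPM against 7.92, 3.65 and 1.29 CPM. Tlr3, Tlr5 and Tlr7 stood at 6.798 and 7.34 CPM against 1.96, 2.71 and 4.66 CPM, 3.55 and 4.28 CPM against 1.89, 0.701 and 1.52 CPM and 96.9 and 75.8 CPM against 23.9, 59.8 and 53.2 CPM.

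MHC class II genes, which present antigen to CD4 T cells, were present and stood higher in kd 1 than in kd 2, with H2-Oa as the exception at 11.4 and 16.2 CPM. H2-Aa stood at 351 and 124 CPM against 35.4, 32.2 and 25.9 CPM, H2-Ab1 at 355 and 162 CPM against 45.95, 49.5 and 30.2 CPM, and Cd74, the invariant chain, at 1646 and 881 CPM against 175, 100 and 71.03 CPM. In WT, H2-Aa lay at 1.74, 0.129 and 0.66 CPM. Of 10 class II genes, 5 were higher and none was lower, and Ciita, their transactivator, stood at 7.93 and 4.85 CPM against 1.07, 1.17 and 2.305 CPM. Dendritic cell genes were less regular: Flt3, the growth factor receptor of dendritic cell precursors, stood at 9.17 and 6.73 CPM against 0.074, 0.374 and 0 CPM, Zbtb46, a factor of conventional dendritic cells that endothelium shares, at 3.35 and 7.01 CPM against 10.4, 13.2 and 18.4 CPM, Xcr1, of the cross-presenting subset, at 3.605 and 0.989 CPM against 0.296, 0.982 and 0.876 CPM, and Clec9a at 0.0515 and 0 CPM against 0.111, 0.701 and 0 CPM. Of 14 members, 3 were higher: Flt3, Siglech and Cd83, the last at 1958 and 1899.8 CPM against 174, 102 and 54.9 CPM.

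Mast cell and basophil genes were also high, and most stood higher in kd 2 than in kd 1. The list summed to 1718 and 5191 CPM in kd 1 and kd 2, to 413, 174 and 231 CPM in kd 3, 4 and 5, and to 48.4, 161 and 712 CPM in WT. Cpa3, a mast cell carboxypeptidase, stood at 397 and 1792 CPM against 146, 2.06 and 43.2 CPM, Cma1, a chymase, at 466 and 1007 CPM against 73.7, 0 and 24.9 CPM, and Tpsb2, a tryptase, at 499 and 866 CPM against 0.518, 0 and 13.2 CPM. Tpsb2 had the largest nearest-library ratio of all genes with a mean of at least 10 CPM, 37.9-fold, and also reached 158 CPM in WT 3. Of 14 measured members, 4 were higher: Cma1, Tpsb2, Prss34 at 47.8 and 51.6 CPM against 0.629, 7.62 and 3.92 CPM, and Hdc, which makes histamine, at 176 and 813 CPM against 25.2, 30.1 and 29.4 CPM. Mcpt1, Mcpt2 and Mcpt4, proteases of mucosal and connective tissue mast cells, had no count in kd 1, kd 4 and kd 5. They stood at 2.73, 1.55 and 2.35 CPM in kd 2 and at 2.701, 39.96 and 25.1 CPM in kd 3. Fcer1a, the IgE receptor chain, was at 0.206 and 0 CPM in kd 1 and kd 2. The part of mast cells and basophils in the other differences was not tested.

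Few lymphocyte genes stood at 10 CPM or more in both kd 1 and kd 2: none of 12 T cell genes, 2 of 12 B cell genes and 2 of 15 innate lymphoid and NK cell genes. For T cells, Cd3e stood at 0 and 0.942 CPM, Cd3d at 0.464 and 0.0471 CPM, Cd3g at 0 and 6.36 CPM and Cd8b1 at 0 and 0 CPM, and none of 12 members was higher. The 2 lower members were Lck, a T cell kinase, at 0 and 0.0471 CPM against 7.07, 5.89 and 8.99 CPM, and Bcl11b, a factor of T cells and of developing neural tissue, at 0.309 and 0.282 CPM against 16.8, 24.1 and 28.4 CPM. The count of 2 of 12 T cell genes lower is near the 16.1% of all tested genes, and nothing is read from it. The B cell list was uneven. Pax5, Igll1 and Rag1 had no count in either library. 2 of 12 members were higher, Cd79b, a signalling chain of the B cell receptor, at 131 and 105 CPM against 11.4, 7.85 and 4.06 CPM, and Cd22 at 9.79 and 8.14 CPM against 0, 0.468 and 1.34 CPM. Blnk, an adaptor of the same receptor, stood at 16.1 and 13.04 CPM against 8.14, 4.77 and 3.04 CPM. The list summed to 157 and 128 CPM against 25.5, 23.6 and 16.6 CPM. For innate lymphoid and NK cells, Ncr1 and Eomes had no count and Il7r stood at 0.979 and 3.44 CPM. Il2rg, a receptor chain shared by many leukocytes, was higher, at 133 and 231 CPM against 27.5, 11.9 and 7.37 CPM. It was the 1 of 15 past the rule, near the 6.54% of all tested genes, and nothing is read from that count.

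Granulocyte genes did not follow the macrophage genes. The list summed to 287 and 187 CPM in kd 1 and kd 2 and to 36.4, 224 and 84.1 CPM in kd 3, 4 and 5. In WT 1, 2 and 3 it summed to 17.5, 35.2 and 609 CPM, so the highest sum was in a WT library. S100a8 stood at 35.1 and 14.9 CPM against 6.51, 81.1 and 11.6 CPM, S100a9 at 0.772 and 0.471 CPM against 0.703, 19.2 and 2.904 CPM, Ngp at 0.0515 and 0.235 CPM against 1.48, 6.17 and 6.22 CPM and Camp at 0 and 0.0942 CPM against 1.22, 5.47 and 3.55 CPM, so that among the 5 libraries kd 4 held the highest level of S100a8, S100a9 and Camp and kd 5 that of Ngp. Of 16 members, 2 were higher, Csf3r, a receptor that monocytes share, at 139.9 and 103 CPM against 7.88, 15.8 and 21.99 CPM, and Prtn3 at 40.1 and 33.1 CPM against 4.29, 5.47 and 2.44 CPM, and 2 were lower, Ngp and Camp. The count of 2 of 16 granulocyte genes lower is near the 16.1% of all tested genes, and nothing is read from it. No platelet gene of 10 was past the rule.

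Red cell transcripts were far lower in kd 1 and kd 2. Hba-a1, an adult alpha globin gene, stood at 32.1 and 15.1 CPM, at 409.8, 1924 and 712 CPM in kd 3, 4 and 5 and at 2006, 650.5 and 1510 CPM in WT, and Hbb-y, an embryonic beta-like globin gene, at 0 and 0.141 CPM, 59.05, 125 and 56.6 CPM and 1111, 265 and 2209.9 CPM. The globin genes are near-identical copies in places, and how the authors' counting divided reads between them is not given in the sources used here. Of 13 measured erythroid genes, 8 were lower. The list took 0.012% (95% Wilson interval 0.0116 to 0.0125%) of counts in kd 1 and 0.0107% (95% Wilson interval 0.0103 to 0.0111%) in kd 2. It took 0.214% (95% Wilson interval 0.212 to 0.216%), 0.767% (95% Wilson interval 0.763 to 0.771%) and 0.364% (95% Wilson interval 0.362 to 0.367%) in kd 3, 4 and 5. As above, these intervals cover the sampling of reads only and are too narrow for molecules. Of 12 genes of blood progenitors, 2 were higher, Tal1 at 17.6 and 23.1 CPM against 2.89, 3.37 and 1.38 CPM and Csf2rb at 293 and 278 CPM against 22.3, 30.6 and 24.3 CPM; Cd34 stood at 68.9 and 151 CPM against 47.3, 24.5 and 28.4 CPM, Kit at 43.5 and 127 CPM against 67.8, 89.6 and 98.96 CPM, Myb at 12 and 19.4 CPM against 4.07, 4.301 and 5.02 CPM and Gata2 at 79.3 and 332 CPM against 30.1, 24.97 and 16.2 CPM.

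Most enteric progenitor genes were lower in kd 1 and kd 2, and of the list only Mef2c, Zeb2 and Ednrb stood at 10 CPM or more in both. Sox10, which neural crest cells need to survive and to form glia (chromosome 15, 79154913 to 79164490, GRCm38.p6), stood at 5.51 and 0 CPM, at 67.97, 77.6 and 68.5 CPM in kd 3, 4 and 5 (71.4 ± 5.41 CPM (SD, n = 3)) and at 281, 274 and 244 CPM in WT. Ret, the signalling receptor for GDNF (chromosome 6, 118151748 to 118197744), stood at 0.875 and 0.377 CPM, at 104, 85.4 and 109 CPM in kd 3, 4 and 5 and at 297, 199.7 and 204 CPM in WT. kd 1 held a low level of Sox10 where kd 2 held none, and Ret lay 97.6-fold below the nearest of kd 3, 4 and 5.

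Of 21 measured progenitor genes, 14 were lower and none was higher, with a median log2 difference of -4.15. Foxd3, a factor that keeps crest cells uncommitted, stood at 0.309 and 0 CPM against 14.8, 36.3 and 31.5 CPM, Phox2a at 0.567 and 0.141 CPM against 50.5, 29.7 and 42.9 CPM, and Tlx2, a homeobox factor of enteric cells, at 0.979 and 0 CPM against 26.1, 32.8 and 20.2 CPM. Ednrb, the endothelin receptor without which crest cells do not reach the distal gut, was a different case. It stood at 176 and 159 CPM in kd 1 and kd 2, at 340.3, 386 and 345 CPM in kd 3, 4 and 5 and at 1029, 1214 and 1251 CPM in WT, so the nearest libraries lay 1.94-fold apart. Zeb2 and Mef2c, factors that myeloid cells also use, were not lower, at 201 and 193 CPM against 69.2, 163 and 164 CPM and 519 and 407 CPM against 99.7, 103 and 94.3 CPM.

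Neuron genes had the most negative median difference of the enteric and Hox lists. Of 30 measured members, 25 were lower and none was higher, and the median log2 difference was -5.87. Tubb3, the neuronal tubulin, stood at 1.13 and 0.706 CPM against 278, 117 and 157 CPM. Elavl4, an RNA-binding protein of neurons, stood at 6.13 and 3.34 CPM against 119, 71.02 and 112 CPM, Elavl3 at 0.875 and 0.141 CPM against 50.98, 45.2 and 70.5 CPM and Stmn2, a microtubule regulator of growing axons, at 1.24 and 5.602 CPM against 146, 88.6 and 170.03 CPM. The ranges did not overlap for any of the 4, which the choice of these libraries favours, and the share of all genes without overlap was not counted. Chrna3, a nicotinic receptor subunit of autonomic neurons, had no count in kd 1 or kd 2 and stood at 60.5, 32.2 and 32.1 CPM in kd 3, 4 and 5, at least 208-fold lower taking 3 counts per library as the floor. The neuropeptide genes Gal and Cartpt stood at 0.103 and 0.0471 CPM against 84.8, 74.8 and 43.9 CPM and 0.154 and 0 CPM against 47.2, 44.9 and 108 CPM. Gap43, a growth cone protein, lay 168-fold lower, at 0.772 and 0.659 CPM against 164, 129.8 and 182 CPM.

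The neuron genes that did not pass the rule were few. Slc18a2, the vesicular monoamine transporter that mast cells also express, stood at 15.2 and 26.7 CPM against 15.9, 19.7 and 43.97 CPM. Etv1, a factor of enteric neurons and Cajal cells, stood at 32.5 and 20.1 CPM against 97.5, 93.5 and 141 CPM, Ebf1 at 0.0515 and 1.65 CPM against 4.85, 9.397 and 7.24 CPM, and Th and Dlx6 had a mean under 1 CPM. Transmitter genes were at the floor in both libraries: Vip, Chat, Slc18a3, Dbh and Th had no count in kd 1 or kd 2, against 10.6, 3.88 and 26.7 CPM for Vip and 12.9, 5.75 and 23.8 CPM for Slc18a3 in kd 3, 4 and 5. Nos1, the nitric oxide synthase of inhibitory motor neurons, stood at 0.412 and 0 CPM against 11.7, 7.53 and 6.22 CPM.

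Glial and Schwann precursor genes were lower for 7 of 18 and higher for 1, with a median log2 difference of -2.62 (-3.46 without kd 1 and -2.08 without kd 2). Sox2, a factor of progenitors and glia, stood at 1.802 and 0.188 CPM against 19.1, 16.2 and 19.2 CPM and Fabp7, a fatty acid binding protein of immature glia, at 8.76 and 0.518 CPM against 32.9, 43.2 and 41.7 CPM. Cnp, an enzyme of myelinating glia that other cells also make, stood above kd 3, 4 and 5, at 138 and 119 CPM against 54.7, 67.2 and 45.1 CPM. Egr2 was the member past the rule in the upward direction, at 324 and 322 CPM against 44.5, 31.4 and 24.9 CPM; it drives Schwann cell myelination and is also induced in macrophages.

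Ligand and receptor genes of gut colonisation were both affected. Of 19, 14 were lower and none was higher. Gfra1, the co-receptor for GDNF, stood at 6.49 and 3.53 CPM against 96.9, 91.7 and 68.6 CPM, and Gdnf itself, a mesenchymal ligand, at 1.13 and 1.55 CPM against 17.8, 20.2 and 12.6 CPM. Edn3, the ligand of Ednrb, stood at 1.65 and 1.32 CPM against 35.8, 23.4 and 13.7 CPM, whereas Ece1, which cleaves its precursor, stood at 61.2 and 57.7 CPM against 82.3, 88.9 and 67.5 CPM. Erbb2 and Erbb3, the receptor pair for neuregulin in the glial line, stood at 0.721 and 1.55 CPM against 25.7, 37.7 and 28.9 CPM and 6.03 and 1.84 CPM against 44.99, 40.3 and 42.8 CPM.

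Hox genes, which give gut cells their positional code, were lower as well. Of 31 measured Hox genes, 26 were lower and none was higher, with a median log2 difference of -4.61. Hoxb5, which acts in enteric crest cells, stood at 0.412 and 1.08 CPM against 91.8, 91.7 and 125 CPM, Hoxb3 at 0.567 and 0.847 CPM against 46.6, 72.2 and 113 CPM and Hoxd3 at 1.802 and 0.471 CPM against 77.1, 71.8 and 81.3 CPM. Members of the cluster on chromosome 6 followed, with Hoxa2 at 0.721 and 0.424 CPM against 19.2, 21.9 and 19.5 CPM, Hoxa3 at 0.979 and 1.46 CPM against 29.4, 54.3 and 66.4 CPM and Hoxa4 at 1.597 and 1.55 CPM against 28.3, 37.7 and 53.7 CPM. The 5 not past the rule were Hoxa7, Hoxb1, Hoxc8, Hoxc9 and Hoxd1.

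Transcripts of the sort antigens were low in kd 1 and kd 2. Ngfr encodes CD271, the low-affinity neurotrophin receptor, and stood at 1.54 and 2.17 CPM, at 23.6, 14.1 and 14.2 CPM in kd 3, 4 and 5 and at 83.3, 208 and 149 CPM in WT. B3gat1, whose enzyme makes the CD57 (HNK-1) carbohydrate, had no count in kd 1 or kd 2 and stood at 4.25, 2.15 and 7.74 CPM in kd 3, 4 and 5, at least 13.9-fold lower. B3gat2, a related enzyme, stood at 0.0515 and 0.0471 CPM against 3.03, 2.43 and 2.35 CPM, and Chst10, the HNK-1 sulfotransferase, at 2.32 and 1.69 CPM against 10.7, 4.21 and 9.73 CPM. Protein on the sorted cells was not measured.

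**Figure D3:**
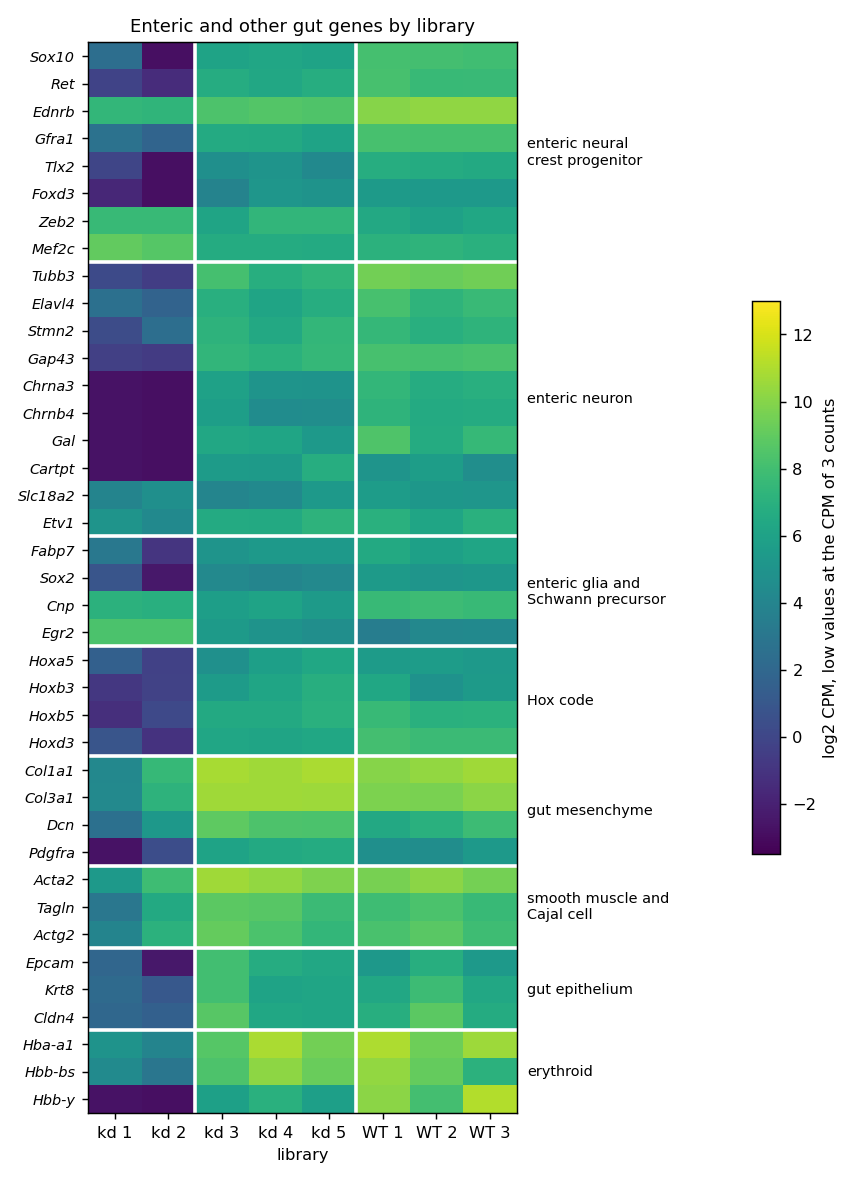
Log2 CPM (colour) of genes from the enteric, Hox, mesenchyme, smooth muscle, epithelium and erythroid lists (rows) in the 8 libraries (columns), with values at or under 3 counts set to that level. Neuron rows such as Chrna3 are at the floor in kd 1 and kd 2, while Ednrb (176 and 159 CPM), Zeb2 and Mef2c keep colour there.

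Lists of other gut cell types had between 2 of 14 and 10 of 10 members lower, against 16.1% of all tested genes. The count of 2 of 14, for smooth muscle and Cajal cells, was no more than that share, and nothing is read from it. Mesenchymal genes were lower for 17 of 20: Col1a1 and Col3a1, fibrillar collagens, stood at 18.3 and 188 CPM against 1809.9, 1607 and 1918 CPM and 18.9 and 144 CPM against 1615, 1624 and 1559.9 CPM, and Pdgfra, a fibroblast receptor, at 0 and 1.32 CPM against 66.3, 91.3 and 99.8 CPM. Vim, an intermediate filament of mesenchyme that leukocytes also make, stood at 436 and 517 CPM against 566, 521 and 471 CPM. Epithelial genes were lower for 14 of 16, with Epcam, an adhesion molecule of epithelia, at 3.86 and 0.188 CPM against 262, 104 and 83.1 CPM and Krt8, a keratin, at 4.53 and 2.07 CPM against 261, 65.97 and 72.7 CPM. All 10 mesothelial genes were lower, with Wt1, a factor of the serosal lining, at 0.412 and 0.847 CPM against 26.9, 44.6 and 129 CPM and Upk3b, a uroplakin, at 0.515 and 0.753 CPM against 62.2, 24.2 and 31.6 CPM.

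Endothelial genes were lower for 9 of 20 and higher for 1, Lyve1, which macrophages share. Among the lower ones was Cldn5, a tight junction protein, which had no count in kd 1 or kd 2 and stood at 8.51, 7.25 and 7.37 CPM in kd 3, 4 and 5. Pecam1, an adhesion molecule of endothelium and leukocytes, stood at 52.2 and 45.6 CPM against 37.7, 29.3 and 17.4 CPM, and Cdh5, the junctional cadherin of vessels, at 2.63 and 3.201 CPM against 25.2, 15.99 and 10.3 CPM. Smooth muscle and Cajal cell genes had 2 of 14 past the rule, Myocd, the master cofactor of smooth muscle, at 2.63 and 5.46 CPM against 73.03, 94.4 and 71.7 CPM, and Ano1, the chloride channel of Cajal cells, at 0 and 4.19 CPM against 31.3, 30.2 and 25.9 CPM. Acta2, smooth muscle actin, stood at 42.7 and 238 CPM against 1599.7, 1273 and 883 CPM, Tagln at 8.34 and 92.6 CPM against 451, 419 and 211 CPM and Actg2 at 15.7 and 139.8 CPM against 555, 326 and 175 CPM, so that kd 2 approached kd 5 where kd 1 did not.

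Most genes stood at similar levels in kd 1 and kd 2. Of 9493 genes with at least 10 CPM in either, 97.4% (9248) lay within 2-fold. This share was not counted for other pairs of libraries, so it is not given as particular to this pair. The counts of kd 1 and kd 2 differed by more than the sampling of reads alone, with a chi-square of 35.6 per degree of freedom. The closest other pair among the 8 libraries gave 30.6, a smaller value. kd 1 and kd 2 were treated as separate samples. 2 genes were at least 8-fold higher in kd 1, among them Cd209a, a C-type lectin of dendritic cells and macrophages, at 34.8 and 0 CPM. Below that limit the largest ratios were those of Mmp9, a gelatinase, at 44.4 and 5.88 CPM, Iigp1 at 21.6 and 3.77 CPM and Slfn4 at 27.1 and 6.07 CPM. In kd 2, 20 genes were at least 8-fold higher, led by Casq1, a calcium store protein of muscle, at 0.36 and 17.2 CPM, Mcpt8, a basophil protease, at 5.05 and 174 CPM, Bgn, a matrix proteoglycan, at 0.515 and 11.2 CPM, Arg1 at 0.669 and 13.04 CPM and Car2 at 1.44 and 22.8 CPM. With 1 library against 1 there was no replicate check.

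The levels of gut genes differed between the 2 libraries, in a direction that depended on the list. Taken gene by gene among members of at least 10 CPM on average in kd 3, 4 and 5, a choice that favours low percentages here, neuron genes stood at a median of 0.521% and 0.319% of the kd 3-5 mean in kd 1 and kd 2. Progenitor genes stood at 7.64% and 2.45%, glial genes at 18.2% and 4.7002%, mesenchymal genes at 1.52% and 7.86% and smooth muscle genes at 4.03% and 28.4%. By these medians the progenitor and glial genes stood higher in kd 1, and the mesenchymal and smooth muscle genes in kd 2. Genes of gut colonisation stood at 7.18% and 8.31%, and Ngfr, the one sort antigen gene at that level, at 8.94% and 12.5%, both higher in kd 2. The summed level of all neuron genes was nearly equal, at 65.1 and 65.96 CPM. Epithelial genes stood at 2.96% and 0.913%, mesothelial genes at 1.05% and 2.01%, endothelial genes at 13.7% and 15.7% and Hox genes at 1.76% and 2.74%.

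**Figure D4:**
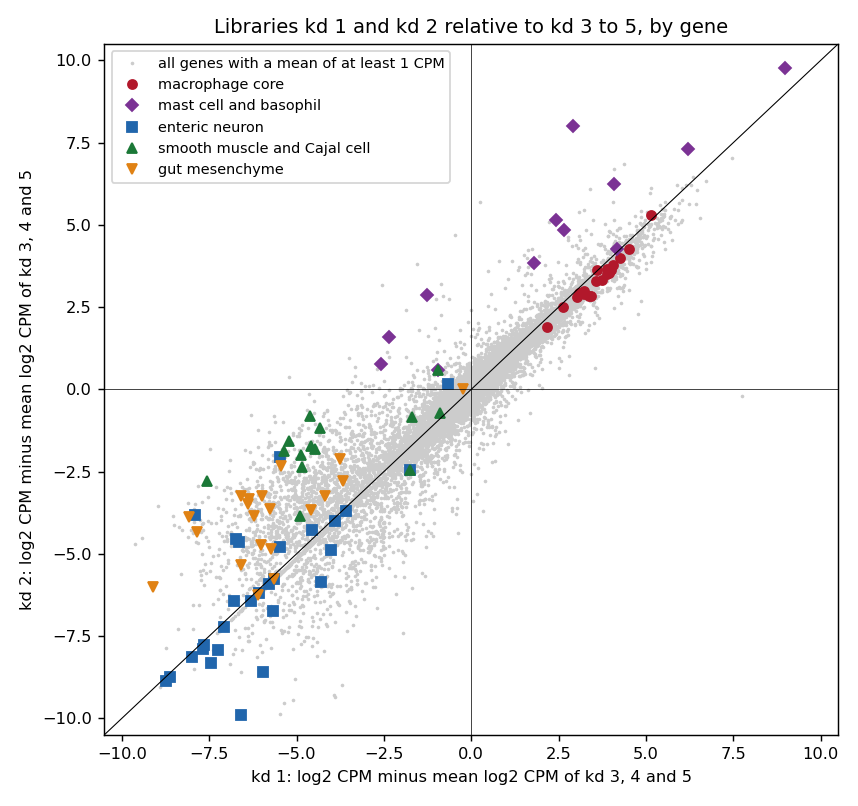
Each gene's log2 CPM in kd 1 (horizontal axis) and kd 2 (vertical axis) minus its mean log2 CPM in kd 3, 4 and 5, for the genes with a mean of at least 1 CPM (grey) and 5 marker lists (coloured). Macrophage core genes lie at the upper right on the diagonal, mast cell genes mostly above it, and smooth muscle and mesenchymal genes mostly above it at the lower left.

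The macrophage genes were not absent from the other libraries. Among list genes of at least 10 CPM on average in kd 1 and kd 2, a choice that itself favours low percentages elsewhere, core genes stood in kd 3, 4 and 5 at a median of 9.05%, 10.4% and 7.96% of the kd 1-2 mean, and in WT 1, 2 and 3 at 2.35%, 2.44% and 1.63%. Complement and opsonin receptor genes stood at 7.52%, 8.98% and 4.58% and at 2.03%, 1.82% and 1.59%, and Toll-like receptor genes at 7.89%, 9.06% and 4.93% and at 2.299%, 1.91% and 1.801%. MHC class II genes stood at 13.6%, 10.7% and 8.39% and at 3.52%, 1.25% and 1.09%. Genes of the resident fetal list stood relatively high in kd 4, at 11.5%, 21.1% and 12.3% in kd 3, 4 and 5. Lysosomal genes, which every cell uses, stood at 18.3%, 15.9% and 11.9% and at 13.5%, 15.7% and 14.2%.

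**Figure D5:**
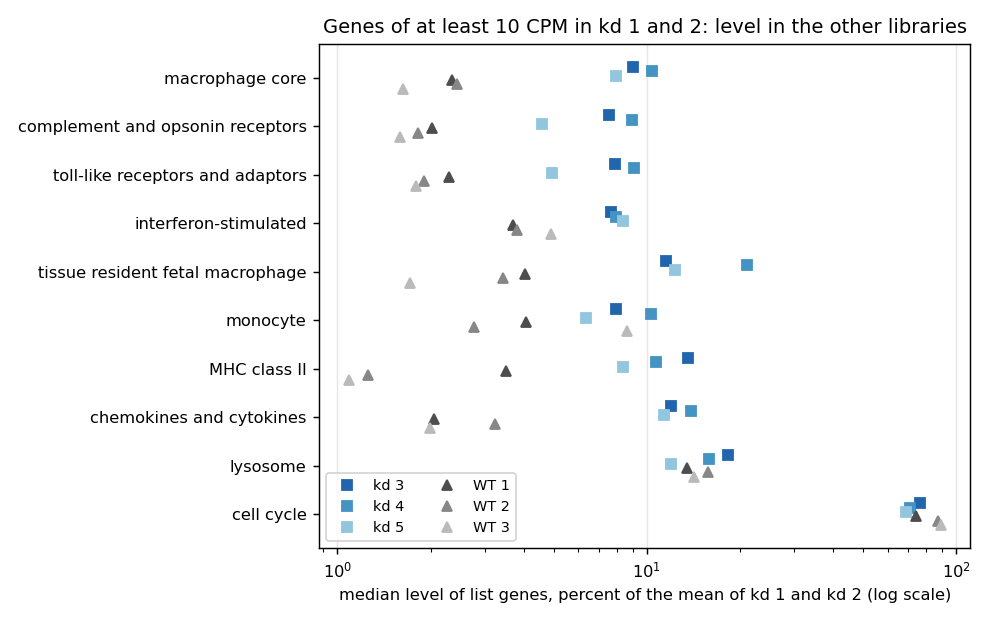
Median level of list genes in kd 3 to 5 (squares) and WT (triangles) as a percent of the mean of kd 1 and kd 2 (horizontal axis, log scale), over list genes with at least 10 CPM on average in kd 1 and kd 2. Macrophage core genes sit at 9.05%, 10.4% and 7.96% in kd 3, 4 and 5, and cell cycle genes at 76.2%, 70.9% and 68.96%.

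Few cell cycle genes separated the sets. Of 27, none was higher and 1 was lower, Ccnd2, a D-type cyclin, at 95.996 and 118 CPM against 571, 562 and 561 CPM. Mki67, a marker of cycling cells, stood at 281 and 359.6 CPM against 276, 332 and 319 CPM, Top2a, a topoisomerase of dividing cells, at 343 and 399 CPM against 344, 489.96 and 465 CPM, Ccnb1, a mitotic cyclin, at 196 and 288 CPM against 198, 99.4 and 61.6 CPM, and Ccnb2 at 182 and 239 CPM against 139, 101 and 68.5 CPM. Among the partners of embigin, Bsg, which encodes the related chaperone basigin, stood at 505 and 504 CPM against 482, 505 and 497 CPM, and Slc16a1, the lactate transporter MCT1, at 20.03 and 20.1 CPM against 23.3, 14.2 and 26.7 CPM. Slc16a7, the transporter MCT2, stood at 54.3 and 48.7 CPM against 10.7, 11.03 and 14.8 CPM.

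Among genes with a mean of at least 10 CPM, the 10 largest nearest-library ratios upward were those of Tpsb2, Usp18, Ifi209, Ticam2, Ifit3, Pirb, Clec4e, Irf7, Cd300lf and Tgfb1, from 37.9-fold down to 22.9-fold. Pirb, an inhibitory receptor of myeloid cells, stood at 124 and 90.2 CPM against 3.51, 2.57 and 2.904 CPM, and Clec4e, a receptor for glycolipids, at 36.6 and 54.8 CPM against 1.48, 1.403 and 1.38 CPM. Downward, the first 10 were Hbb-y, Cartpt, Gal, Khdrbs3, Chrna3, Srrm4, Gap43, Frem1, Pcsk1n and Chrnb4. Khdrbs3, an RNA-binding splicing regulator, stood at 0.206 and 0.141 CPM against 49.5, 50.4 and 52.1 CPM. Srrm4, a splicing factor of neurons, had no count in kd 1 or kd 2 and stood at 32.04, 36.4 and 41.4 CPM in kd 3, 4 and 5, at least 207-fold lower.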

How the data were processed

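Bulk RNA of sorted cells was measured in 8 libraries, 5 labelled Emb knockdown and 3 WT. The authors deposited expected counts per gene, FPKM and TPM in one table, per the file headers. Expected counts were rounded to whole numbers (17.6% to 19.8% of values were not whole). FPKM and TPM, deposited by the authors, served for levels between genes and as alternatives. HISAT, Bowtie2 and GRCm38.p6 are named without versions in the submitters' processing notes; for the counting tool and the annotation, neither is named (not given in the sources used here). The cDNA method keeps no strand, and antisense pairs are therefore not resolved.

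CPM used TMM factors (edgeR 4.0.16, R 4.3.3) over all 8 libraries, with DESeq2 1.42.0 size factors as an alternative. Of 18561 genes, 14170 had a mean of at least 1 CPM over the 5 knockdown libraries. The 4-fold rule compared the nearest libraries, with values floored at 3 counts; the log2 difference is the mean log2 CPM of kd 1-2 minus that of kd 3-5. The rule was tried on simulated counts, with changed genes only at 10 CPM or more, the same spread for every gene and no shift in composition. The simulation does not show how the rule behaves at lower levels or under the composition shift of these libraries. List medians cover every member in the table. No test of kd 1-2 against kd 3-5 was run, since the libraries were chosen by these values. The libraries, members and lists were chosen with earlier results of these data known, and 2 of 38 lists (interferon-stimulated and immediate early) were added after the values were seen. 576 of 583 list genes were in the table. Named genes are Emb, the 4 given markers, the sort antigen list, the 10 largest ratios each way, up to 4 leading members past the rule and the first 4 members of each list, and the 5 largest ratios each way between kd 1 and kd 2; any other gene named was chosen after its values were seen. Gene positions and promoter windows are from RefSeq, matched for 18507 genes by identifier. Some genes that fall under this rule are not reported here.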

Additional observations from a re-analysis of the deposited data

Results flagged for a closer look

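6 values among the 5 knockdown-labelled libraries stood apart from the other 4 by Dixon's criterion. Chance alone meets it in about 1 in 20 groups drawn from a single normal distribution. These libraries fall into 2 sets chosen by their values, so that rate does not apply here. The criterion was applied to the sums of all 38 lists and to a set of named genes, so several such values can be met by chance alone. The gut epithelium list summed to 1729 CPM in kd 3. It summed to 29.9 and 16.7 CPM in kd 1 and kd 2 and to 456 and 434 CPM in kd 4 and kd 5. In WT 1, 2 and 3 the sums were 487, 1411 and 479 CPM. Cd209a reached 34.8 CPM, Mmp9 44.4 CPM, Iigp1 21.6 CPM and Slfn4 27.1 CPM in kd 1, and Mcpt8 reached 174 CPM in kd 2. These 5 genes were picked for their ratio between kd 1 and kd 2, a choice that favours 1 library standing apart.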

How the results depend on the processing

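Alternatives were run for the counts of genes, the list medians and a set of named genes, not for every called gene. No list median of at least 2 in size and none of these named genes past the 4-fold rule changed sign. Smaller or uncalled values did. Without kd 1 the log2 difference of Cd209a went from 3.77 to -0.204, that of Casq1 from -2.43 to 0.364 and that of Car2 from -1.33 to 0.666. Without kd 2 that of Arg1 went from 0.273 to -1.87 and the T cell median from 0.506 to -0.197. The cell cycle median went from 0.426 to -0.0217 without a composition factor. The granulocyte, B cell and innate lymphoid medians, at 0.0927, 0.194 and -0.111, changed sign or reached 0 under at least 1 alternative. Of 12 B cell genes, 6 were at or under 3 counts in kd 1 and kd 2, and 6 in kd 3, 4 and 5. The B cell median therefore equals the difference between the floors of the libraries and is not a difference in level. Without a composition factor the median log2 difference of all tested genes moved from -0.04 to -0.50 (-0.07 with DESeq2 size factors), that of the macrophage core to 3.03 and that of enteric neurons to -6.31. On FPKM and TPM the macrophage core median was 3.03 and 3.12. Without a composition factor 655 genes were higher and 2653 lower, and on FPKM 622 and 2142, against 927 and 2276. With a mean of at least 10 CPM, 1139 genes were lower. At 2-fold, 2045 genes were higher, and at 8-fold 376 were higher and 1412 lower. Leaving out 1 knockdown library at a time gave neuron medians from -6.26 to -5.44. Without kd 1 and without kd 2, the mesenchyme median was -3.64 and -5.997 (-4.93 with both), smooth muscle -1.76 and -4.61 (-3.15), and glia -3.46 and -2.08 (-2.62). MHC class II genes gave 2.44 and 3.72 (3.15), and mast cell genes 4.06 and 2.103 (3.28). With at least 50 CPM in one library, 8 genes were at least 8-fold apart between kd 1 and kd 2, against 22. No paired analysis was possible because both sets belong to 1 group and no test between them was run. With 2 libraries against 3, chosen by their values, the differences describe these tubes.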

Other observations

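Interferon-stimulated genes, a list added after the values were seen, were higher in kd 1 and kd 2 for 20 of 29 measured members and lower for none, with a median log2 difference of 3.65. Usp18, which limits interferon signalling, stood at 29.2 and 31.7 CPM against 0.888, 0 and 0.369 CPM, Irf7, the factor that amplifies the response, at 286 and 209 CPM against 8.92, 5.33 and 2.26 CPM, and Isg15, a ubiquitin-like protein, at 116 and 82.8 CPM against 7.58, 7.85 and 9.68 CPM. Ifit1 stood at 16.3 and 11.9 CPM against 0.37, 0.888 and 2.12 CPM. The 27 members of at least 10 CPM on average in kd 1 and kd 2 were also compared, a choice that itself favours low percentages elsewhere. Their median level was 7.65%, 7.92% and 8.395% of the kd 1-2 mean in kd 3, 4 and 5. In WT it was 3.699%, 3.8003% and 4.91%.

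Immediate early genes, also added after the values were seen, were higher for 5 of 20 and lower for none. Junb stood at 2589 and 2482 CPM against 268, 254 and 308 CPM, Dusp1, a phosphatase that ends MAP kinase signals, at 1905 and 2092 CPM against 333, 171 and 162 CPM, and Zfp36, which destabilises cytokine mRNA, at 4481 and 3769.5 CPM against 655, 552 and 624 CPM. Fos and Fosb stood at 3867 and 3268 CPM against 2298, 1611 and 1532 CPM and 549 and 461 CPM against 754, 911 and 1145 CPM.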
